A study of Mus musculus with 4 samples.

Results

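Plasma cell and B cell genes were followed in RNA-seq libraries of NKT cells sorted from the small intestinal lamina propria (SI-LP). The set holds 10 of the 25239 genes in the count table. It comprises 6 genes of plasma cells, *Jchain*, *Mzb1*, *Derl3*, *Sdc1*, *Xbp1* and *Pou2af1*, and 4 genes of B cells, *Cd79a*, *Cd79b*, *Ms4a1* and *Pax5*. The genes were picked by name after *Jchain* had been seen to differ widely between the 2 experiments in which the libraries were made. Values that set one experiment against the other therefore describe the genes and were not tested for any of them. Of the 10 genes, 8 reached a minimum of 10 counts in 2 or more libraries, as did 11689 genes of the whole table. *Mzb1*, *Cd79a* and *Cd79b* reached that minimum through the second experiment alone, so they could pass only by being high there, and *Ms4a1* and *Pax5* did not reach it.

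B cells carry an antigen receptor whose signaling chains are encoded by *Cd79a* and *Cd79b*. When a B cell becomes a plasma cell it shuts down much of the B cell program, enlarges its endoplasmic reticulum and secretes antibody. The lamina propria of the small intestine is rich in plasma cells that make IgA, and the J chain joins IgA into dimers that the epithelium transports into the lumen.

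The study examined the crosstalk of intestinal NKT cells, T cells that recognize lipids on CD1d, with the epithelium, and these libraries profiled NKT cells of mice without treatment. All 4 libraries are of 1 condition, WT mice of the C57BL/6Jax strain, and the labels name 2 libraries of a first experiment (replicates 3 and 4) and 2 of a second (replicates 1 and 2). The methods give an age of 7 to 10 weeks for the mice of the study, an injection of an anti-ARTC2 nanobody before the tissue was taken, and a sort of live cells positive for TCRβ and the PBS-57-loaded CD1d tetramer and negative for B220, CD11b, CD11c and CD8. B220 is carried by B cells, and many plasma cells carry little of it. Whether cells of either kind passed the gate was not tested. The titles number the mice or samples WT1 to WT4 and do not say whether each is a separate animal, so the spread between replicates may be partly technical. Libraries of other tissues and cell types of the study are not analysed here.

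Total counts on genes were 7233071 and 8732858 in replicates 1 and 2 of the second experiment, and 5487147 and 3882803 in replicates 3 and 4 of the first. Levels are given as CPM, counts scaled to a common library size after edgeR's TMM scaling, and levels of different genes are compared as TPM, which also takes gene length into account. A count of 3 was taken as the smallest detectable, which equals 0.416, 0.287, 0.670 and 0.753 CPM in replicates 1 to 4. T cell markers were present in every library, with *Cd3e*, a chain of the T cell receptor complex, at 1835, 616, 2085 and 855 CPM in replicates 1 to 4. Since these are bulk libraries, fewer cells of a type and less RNA per cell cannot be told apart.

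The promoters of 3 plasma cell genes are shown to give the sequence context of the genes that the results turn on, *Jchain*, *Pou2af1* and *Derl3*. Windows run from 250 bases before to 50 bases after the transcription start, 5′ to 3′ on the gene's strand, from RefSeq on GRCm38.p6. Such a window was at hand for 7 of the 10 genes, and the start of all 7 equals the start in the deposited table. Capitals mark in *Jchain* the E-box CAGGTG, the kind of site that E proteins bind in B lineage cells, which lies on the opposite strand 5 bases after the start. In *Pou2af1* they mark the unfolded protein response element TGACGTGG, 61 bases before the start, and in *Derl3* both ends of the endoplasmic reticulum stress element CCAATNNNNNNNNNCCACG, on the opposite strand 156 bases before the start. XBP1 is known to bind these last elements.
*Jchain*, chr5:88527848-88528147, minus strand: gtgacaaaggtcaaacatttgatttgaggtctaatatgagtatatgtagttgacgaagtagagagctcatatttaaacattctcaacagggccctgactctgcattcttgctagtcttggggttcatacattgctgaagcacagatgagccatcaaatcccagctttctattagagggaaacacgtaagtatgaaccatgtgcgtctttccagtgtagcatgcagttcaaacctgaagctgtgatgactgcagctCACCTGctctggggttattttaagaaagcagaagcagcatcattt
*Pou2af1*, chr9:51213440-51213739, plus strand: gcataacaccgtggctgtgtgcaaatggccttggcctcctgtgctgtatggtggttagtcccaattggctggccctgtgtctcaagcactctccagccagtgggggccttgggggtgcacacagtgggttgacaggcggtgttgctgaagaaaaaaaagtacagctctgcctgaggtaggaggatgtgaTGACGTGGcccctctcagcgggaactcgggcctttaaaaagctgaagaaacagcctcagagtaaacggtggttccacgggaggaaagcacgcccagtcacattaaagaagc
*Derl3*, chr10:75893148-75893447, plus strand: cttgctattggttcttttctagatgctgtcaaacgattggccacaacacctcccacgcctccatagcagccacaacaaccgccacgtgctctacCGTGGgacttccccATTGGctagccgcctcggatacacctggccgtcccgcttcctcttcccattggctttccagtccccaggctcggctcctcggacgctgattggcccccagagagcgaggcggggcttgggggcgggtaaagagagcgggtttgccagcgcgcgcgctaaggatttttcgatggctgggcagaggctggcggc
Both strands were searched for exact letters. The E-box was found in 20.2% of the 32851 promoters of the table and in 4 of the 7 windows, those of *Jchain*, *Derl3*, *Xbp1* and *Cd79a*. The unfolded protein response element was found in 0.676% of all promoters, and besides *Pou2af1* in *Txndc5* and *Txndc11* among 18 promoters of other plasma cell genes and in 0 of 31 promoters of secretory pathway genes. The endoplasmic reticulum stress element, which contains a CCAAT box, was found in 0.119% of all promoters and in 7 of 31 promoters of secretory pathway genes, *Calr*, *Canx*, *Dnajc3*, *Hsp90b1*, *Hspa5*, *Pdia6* and *Syvn1*, and in 1 of the 18 promoters of other plasma cell genes, that of *Creld2*. The octamer ATGCAAAT, the site of the POU factors that the *Pou2af1* product assists, was in 1.74% of promoters and in 0 of the 7 windows. These matches describe the letters of the windows only.

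*Jchain*, which encodes the joining chain of IgA and IgM, lies on chromosome 5 (88519809 to 88527897, GRCm38, minus strand). The second experiment held 44022 (replicate 1) and 66662 counts (replicate 2) of it, and the first held 11 (replicate 3) and 780 counts (replicate 4). This amounts to 6099 and 6383 CPM in the second experiment and to 2.46 and 196 CPM in the first. The libraries of the second experiment were thus both high and near each other, replicate 4 was intermediate and replicate 3 was the lowest, and the experiments did not overlap. By TPM, *Jchain* ranked 5 and 3 among all genes of replicates 1 and 2, and 486 and 9480 in replicates 4 and 3. Its fitted log2 difference, second minus first experiment, was 5.98 with a standard error of 1.93, which placed it at rank 83 of the 11689 genes by size and sign of the difference. The mean CPM of the second experiment was 63.0 times that of the first, while the highest library was 2600 times the lowest.

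*Pou2af1* encodes a coactivator that works with octamer-binding POU factors in the B lineage (chromosome 9, 51213690 to 51240079). Its counts were 3228, 3403, 0 and 48 in replicates 1 to 4, or 447, 326, 0 and 12.0 CPM. The order of the experiments was that of *Jchain*, with replicate 3 again the lowest and replicate 4 intermediate. The fitted log2 difference between experiments was 6.01 with a standard error of 1.76. Among the counts of *Jchain* and *Pou2af1* together, *Pou2af1* took 6.83% (95% Wilson interval 6.61% to 7.06%) in replicate 1, 4.86% (4.70% to 5.02%) in replicate 2 and 5.80% (4.40% to 7.60%) in replicate 4. The interval of replicate 4, which rests on 48 counts of *Pou2af1*, overlapped those of both other libraries. Those of replicates 1 and 2 did not overlap each other, so overlap is not read as an equal share. In replicate 3 the pair had 11 counts, all of *Jchain* (0% for *Pou2af1*, interval up to 25.9%). Other plasma cell genes were set beside *Jchain* in the same way. In replicate 4, *Derl3* took 2.38% of its pair with *Jchain*, *Sdc1* 16.9% and *Xbp1* 40.9%. In replicates 1 and 2 these shares were 0.724% and 0.635%, 1.50% and 0.945%, and 4.48% and 6.89%. *Mzb1* took 0.614%, 0.515% and 0.256% in replicates 1, 2 and 4. The value of replicate 4 rests on 2 counts of *Mzb1*, so the overlap of its wide interval with the others decides nothing. Such intervals cover counting error only.

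*Mzb1* encodes a chaperone of antibody assembly in the endoplasmic reticulum of B lineage cells and lies on chromosome 18. Its counts were 272 and 345 in the second experiment and 0 (replicate 3) and 2 (replicate 4) in the first, that is 37.7, 33.0, 0 and 0.50 CPM. The ratio of the summed counts, second to first experiment, was 148, with replicates 3 and 4 both under the level of 3 counts. Its exact 95% interval of counting error, 40.8 to 1224, shows how loosely so few counts fix the ratio. It is not a test, as the gene passed the filter through the second experiment alone.

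*Derl3*, whose product helps to remove misfolded proteins from the endoplasmic reticulum (chromosome 10, 75893398 to 75895941), had 321 and 426 counts in the second experiment against 12 and 19 in the first. These are 44.5, 40.8, 2.68 and 4.77 CPM, a mean 11.5 times as high in the second experiment as in the first. Unlike for *Jchain*, the 2 libraries of the first experiment were near each other. The fitted log2 difference was 3.51 with a standard error of 1.08.

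*Sdc1* encodes syndecan-1 (CD138), a surface proteoglycan used to identify plasma cells and also present on epithelial cells (chromosome 12, 8771396 to 8793687). It had 672, 636, 7 and 159 counts in replicates 1 to 4, or 93.1, 60.9, 1.56 and 39.9 CPM. Replicate 4 came closest to the second experiment here, while replicate 3 again stood low. The fitted log2 difference was 1.89 with a standard error of 1.35, so that the error was of the order of the difference.

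*Xbp1* encodes the transcription factor that plasma cells and many other secretory cells use to expand the endoplasmic reticulum (chromosome 11, 5520641 to 5525993). It had 2066, 4934, 595 and 540 counts in replicates 1 to 4, or 286, 472, 133 and 135 CPM. It varied least among the 8 genes that passed the filter, with a highest library 3.56 times the lowest, and was the only one of them above 100 CPM in replicate 3. The fitted log2 difference was 1.50 with a standard error of 0.57.

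Of the B cell genes, *Cd79a* (chromosome 7, 24897497 to 24901858), which encodes a signaling chain of the B cell receptor, had 269 (replicate 1) and 288 counts (replicate 2) in the second experiment and 0 in both libraries of the first. Its 37.3 and 27.6 CPM were at least 45.6-fold higher than a level of 3 counts in each library of the first experiment. *Cd79b*, its partner chain (chromosome 11, 106311341 to 106314562), had 113, 256, 2 and 0 counts, or 15.7, 24.5, 0.45 and 0 CPM. The ratio of its summed counts between experiments was 88.4 (exact 95% interval of counting error 24.3 to 733). As for *Mzb1*, the interval shows imprecision only and is not a test. Both receptor chains were thus seen in the second experiment and were at or under 3 counts in the first.

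The other 2 B cell genes were not detectable above 3 counts in any library. *Ms4a1*, which encodes CD20, a surface protein of B cells that plasma cells lack, had 1 count in replicate 1 and 0 in the others. *Pax5*, the transcription factor that keeps B cell identity and is switched off in plasma cells, had 2 counts in replicate 2 and 0 in the others. The receptor chains of the second experiment therefore came without detectable *Ms4a1* or *Pax5* at this depth.

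**Figure D1:**
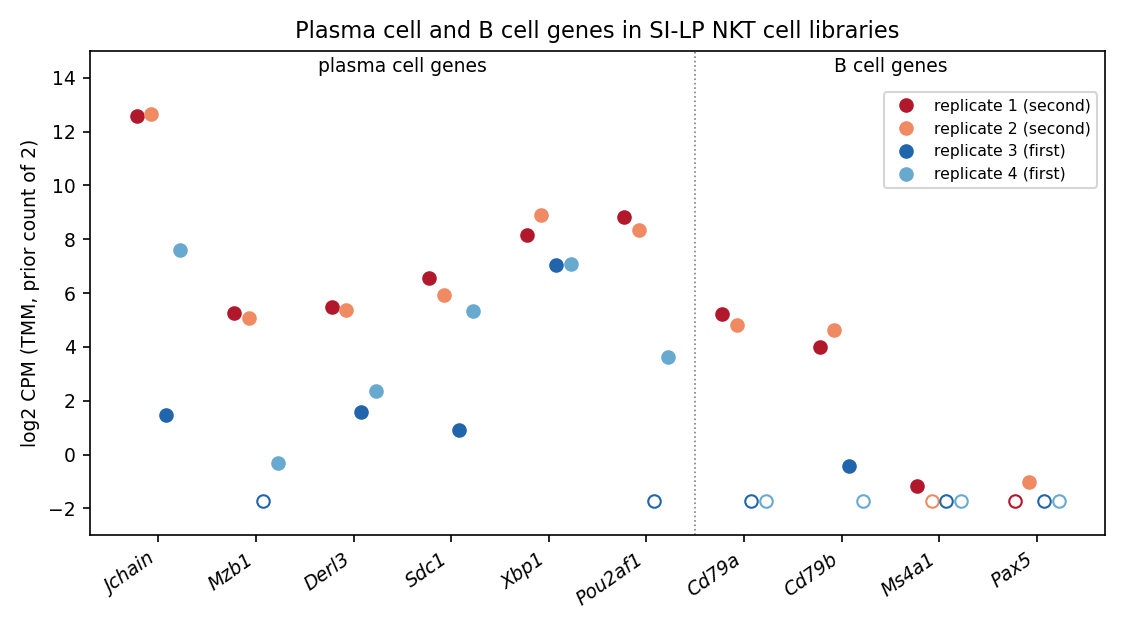
Log2 CPM (TMM, prior count of 2) of the 10 genes in each library, with the second experiment in red and orange and the first in dark and light blue; open circles mark 0 counts. The second-experiment libraries lie above the first-experiment ones for the 8 genes from *Jchain* to *Cd79b*, and *Ms4a1* and *Pax5* have at most 2 counts in any library.

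All 8 genes that passed the filter were higher in both second-experiment libraries than in either of the first, as were 14.7% of all 11689 genes, and 0 of 8 were lower in both, against 14.4% of all genes. The genes were chosen on this contrast, and nothing is read from that count. The median fitted log2 difference was 5.99 over the 8 genes and 0.03 over all genes, and with *Cd79a* set at its lower bound the median of the 8 was 5.74. Over all genes, the quasi-likelihood test of edgeR, adjusted by Benjamini-Hochberg, called 0 of 11689 genes between the experiments (0% at adjusted p under 0.05), with 248 at an unadjusted p under 0.05, and DESeq2 called 41 (0.351%).

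Differences between the 2 libraries of one experiment were not what the genes were chosen by, but they are not independent of the choice. A wide difference between experiments favors a gene that is high in both replicates 1 and 2. Each compares 1 library with 1 library, without a test. *Mzb1*, *Cd79a* and *Cd79b* passed the filter through replicates 1 and 2, which favors libraries that are alike, so their differences are values only. Within the second experiment, the other 5 genes differed between replicates 1 and 2 by at most 0.72 on the log2 scale, the value of *Xbp1*. The median absolute difference of all genes was 1.28. This describes the genes only, as their choice may favor such likeness and all genes include many of lower counts. *Jchain* differed by 0.07 on that scale, *Derl3* by -0.12, *Pou2af1* by -0.46 and *Sdc1* by -0.61 (replicate 2 minus 1).

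Within the first experiment, the plasma cell genes fell apart. *Jchain* was 79.7 times as high in replicate 4 as in replicate 3 by CPM (log2 difference 6.15), a difference exceeded by 2.20% of all genes. *Pou2af1* differed by 5.33 and *Sdc1* by 4.43 on the log2 scale in the same direction, exceeded by 4.43% and 7.78% of all genes. A difference of more than 2-fold in this direction held for 30.6% of all genes. *Derl3* at 0.77 and *Xbp1* at 0.03 did not reach it, beside a median of all genes of 0.08. *Mzb1*, *Cd79a* and *Cd79b* had at most 2 counts in either library, under the level of 3 counts, and give no usable difference there.

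Taking both experiments, 0 of 8 genes were over 2-fold higher in replicate 2 than 1 and in replicate 4 than 3, against 19.0% of all genes, and 0 were over 2-fold lower in both, against 8.08%. *Mzb1*, *Cd79a* and *Cd79b* could not be judged by this measure for want of counts in the first experiment, so both counts describe *Jchain*, *Derl3*, *Sdc1*, *Xbp1* and *Pou2af1*. Epithelial markers behaved otherwise, with 18 of 21 genes over 2-fold higher within both experiments, and 7 of 11 T cell markers were over 2-fold lower within both. These counts depend on the scaling. If libraries are scaled to the summed counts of the T cell markers, *Jchain*, *Mzb1*, *Derl3*, *Xbp1* and *Pou2af1* were over 2-fold higher within both experiments, along with 48.2% of all genes, where *Mzb1* again rests on 2 against 0 counts in the first experiment.

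**Figure D2:**
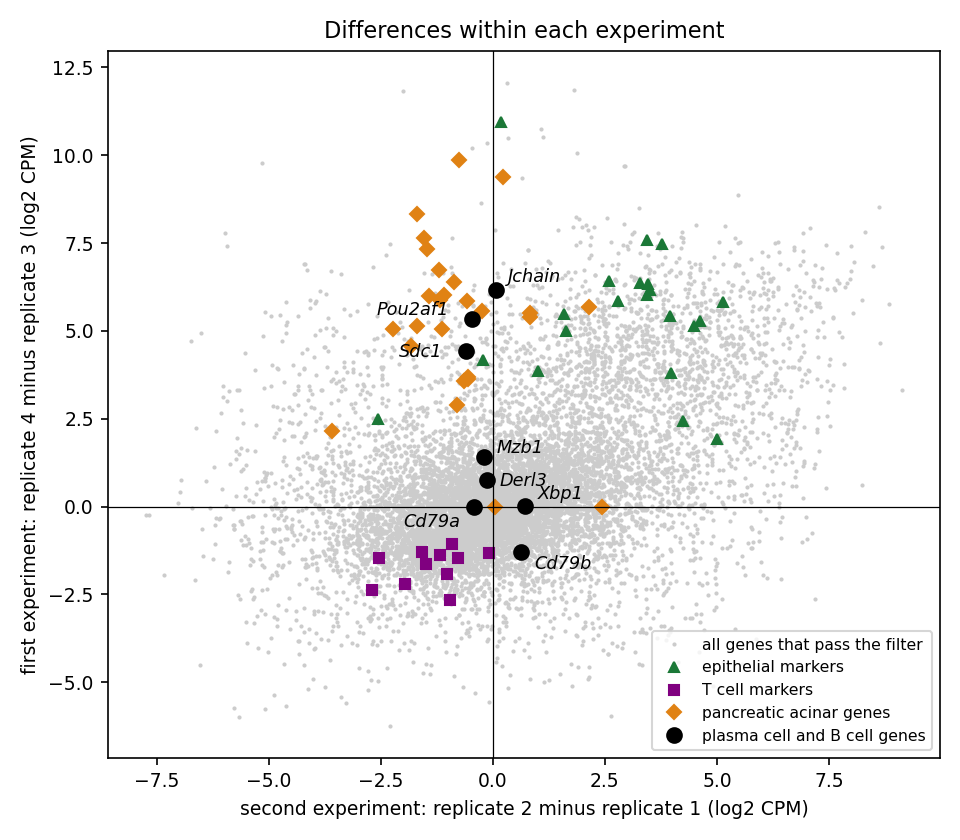
Log2 CPM differences within the second experiment (replicate 2 minus 1, horizontal) and within the first (replicate 4 minus 3, vertical), for the plasma cell and B cell genes in black, epithelial markers as green triangles, T cell markers as purple squares, pancreatic acinar genes as orange diamonds and all genes in gray. The black points lie between -0.61 and 0.72 on the horizontal axis and between -1.30 and 6.15 on the vertical axis.

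The 6 plasma cell genes together took 0.699% of the counts of replicate 1 (95% Wilson interval 0.693% to 0.705%), 0.875% of replicate 2 (0.869% to 0.881%), 0.0114% of replicate 3 (0.0105% to 0.0123%) and 0.0399% of replicate 4 (0.0379% to 0.0419%). The mean was 0.406% ± 0.446 (SD, n = 4), so the spread over libraries was as large as the level. Without *Jchain* the other 5 genes took 0.0907%, 0.112%, 0.0112% and 0.0198%, and the highest library was then 9.97 times the lowest instead of 76.8 times. The share of the 4 B cell genes was 0.00530% in replicate 1 and 0.00625% in replicate 2. They had 2 counts in replicate 3 and 0 in replicate 4, where a count of 0 allows up to 7.73e-05%.

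The makeup of the plasma cell signal was compared per gene length. *Jchain* made up 87.7% of the TPM of the 6 genes in replicate 1 and 87.7% in replicate 2, but 53.1% in replicate 4 and 1.86% in replicate 3. In replicate 3, *Xbp1* made up 94.2% of it. Averaged over the libraries, *Jchain* stood at 4573 ± 5153 TPM (SD, n = 4), followed by *Xbp1* at 331 ± 238 TPM and *Pou2af1* at 231 ± 266 TPM. *Mzb1* at 59.6 ± 68.3, *Derl3* at 51.6 ± 51.8, *Cd79a* at 49.1 ± 57.8, *Sdc1* at 46.6 ± 38.7 and *Cd79b* at 25.1 ± 30.0 TPM came next. No neighbors in this order differed by more than their spread over the 4 libraries. Within the second experiment alone *Xbp1* (383 and 647 TPM) and *Pou2af1* (524 and 391 TPM) overlapped, and *Jchain* (8716 and 9345 TPM) stood above both.

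**Figure D3:**
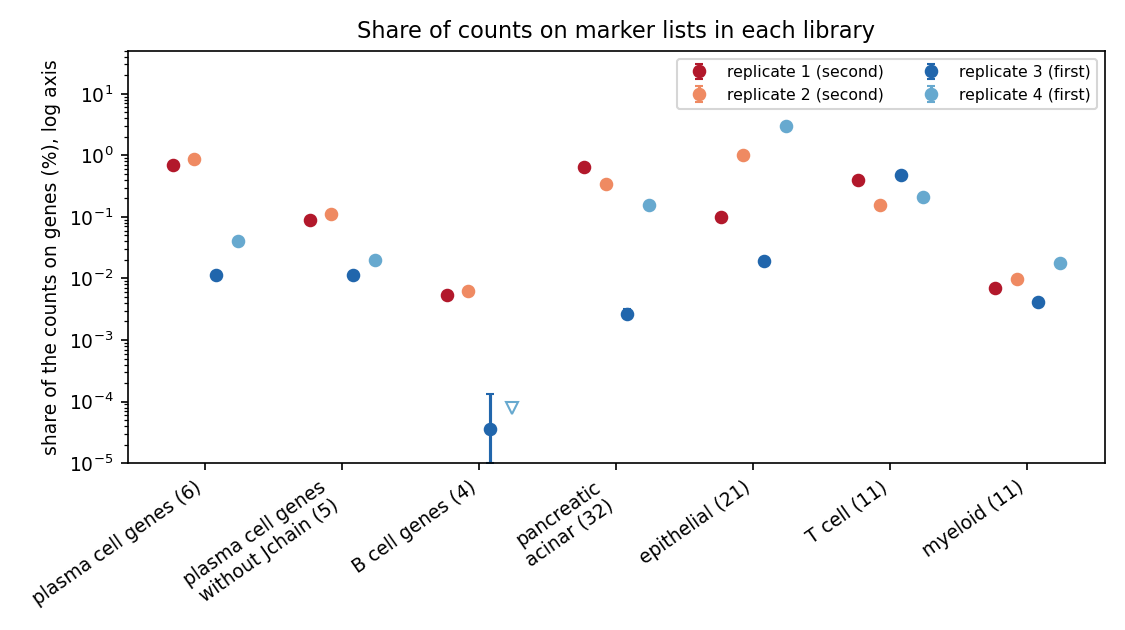
Share of the counts on genes (%, log axis) taken by each gene list in each library, with 95% Wilson intervals where they exceed the points; numbers in parentheses are genes in the list and the triangle marks 0 counts, drawn at the level of 3 counts. The plasma cell genes took 0.699% and 0.875% in the second experiment and 0.0114% and 0.0399% in the first, whereas the epithelial share was highest in replicates 2 and 4.

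Markers of other cells varied along with these shares, and their part in the differences of the plasma cell and B cell genes was not tested. T cell markers (11 of 11 passing the filter) held 0.392%, 0.158%, 0.477% and 0.210% of all counts in replicates 1 to 4. Set against them, *Jchain* had 1553, 4844, 0.420 and 95.5 counts per 1000 T cell marker counts in replicates 1 to 4. Epithelial markers (21 of 21) took 0.0997%, 1.02%, 0.0190% and 3.003%, led by *Lyz1*, the lysozyme of Paneth cells, and *Tff3*, a goblet cell peptide. *Lyz1* alone held 84299 of the 116594 epithelial counts of replicate 4. Replicates 1 and 2 thus differed 10.2 times in epithelial share and 1.25 times in the share of the plasma cell genes, and replicates 3 and 4 differed 158 times and 3.50 times. The last value is set by *Xbp1*, which took most of the plasma cell counts of replicate 3, as the share of *Jchain* alone differed 100.2 times and that of *Sdc1* 32.1 times between these libraries. Myeloid markers (8 of 11 passing) took between 0.00410% and 0.0182%. The ribosomal precursor *Rn45s* took from 7.36% to 28.1% of the counts, more in the first experiment than in the second.

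Other genes of plasma cells were taken from a list of 21 in the table, of which 19 passed the filter. In both second-experiment libraries 13 of 19 were higher and 1 was lower than in the first, against 14.7% and 14.4% of all genes, and the median log2 difference was 1.59 against 0.03. By their role in the plasma cell program, *Prdm1*, which encodes the master regulator Blimp-1 and is also used by effector T cells, had 156, 128, 152 and 106 CPM in replicates 1 to 4, a spread in which the experiments overlapped. *Irf4*, a transcription factor of plasma cells and activated T cells, had 72.7, 42.8, 45.3 and 12.3 CPM, also with overlap. *Tnfrsf17*, which encodes the survival receptor BCMA, had 31, 250, 0 and 4 counts, higher in the second experiment. Both transcription factors had the order replicate 1, 3, 2 and 4 from high to low, and of these 3 genes the receptor separated the experiments.

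The most abundant other plasma cell genes by TPM included shared ones. *Sec11c*, a subunit of the signal peptidase, had 102, 184, 71.4 and 46.7 CPM in replicates 1 to 4, and *Ell2*, an elongation factor that aids secretory antibody transcripts, 405, 210, 162 and 88.8 CPM. Both were higher in both second-experiment libraries, as was *Tmem176b* with 97.7, 105, 54.0 and 37.6 CPM. *Txndc5*, an endoplasmic reticulum oxidoreductase, had 186, 584, 2.90 and 107 CPM, with replicate 3 far below the others, as for *Jchain*; its exons overlap those of *Bmp6*, and without strand the counts cannot be separated. *Slamf7*, a receptor that NK and T cells also carry, had 408, 120, 260 and 183 CPM with overlapping experiments. *Cd38*, which is likewise on T cells, was the gene that was lower in the second experiment, at 105 and 106 against 146 and 153 CPM. Outside the rule for named genes and picked for its values, *Eaf2* had 485 and 445 counts in replicates 1 and 2 and 0 in the first experiment, at least 77.2-fold higher.

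Of 27 other B cell genes in the table, 16 passed the filter, 6 of these were higher in both second-experiment libraries and 0 were lower, beside 14.7% and 14.4% of all genes, and the median log2 difference was 0.76. Among the abundant ones, *Tnfrsf13c*, which encodes the BAFF receptor of B cells, had 239, 349, 2 and 6 counts in replicates 1 to 4, and *Ly6d*, a surface protein of early B cells and of epithelia, had 137, 305, 0 and 26. Both were higher in the second experiment. *Cd24a*, which B cells and epithelial cells share, had 97.4, 790, 2.46 and 442 CPM and was highest in replicates 2 and 4, the libraries with the largest epithelial shares. *Cd72*, a B cell coreceptor whose exons overlap those of *Tesk1*, had 21.1, 8.71, 53.1 and 10.5 CPM, *Ralgps2* 141, 76.1, 57.1 and 58.5 CPM, and *Bach2*, a repressor in B and T cells whose exons overlap its antisense gene, 121, 8.71, 60.0 and 35.9 CPM. *Ralgps2* was the one of these 3 that was higher in both second-experiment libraries. *Ebf1*, the factor that acts with *Pax5* in B cells, had 35, 0, 0 and 60 counts, so its reads came from 1 library of each experiment.

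The secretory pathway and unfolded protein response list, 40 genes that all passed the filter, covers the machinery that antibody secretion loads and that all cells use. Of these genes 18 were higher in both second-experiment libraries and 1 was lower (14.7% and 14.4% of all genes), with a median log2 difference of 0.55. *Hsp90b1*, an endoplasmic reticulum chaperone, was at 1652 and 2144 CPM in the second experiment and at 813 and 850 CPM in the first. *Hspa5*, which encodes the chaperone BiP, had 1417, 1479, 1037 and 762 CPM, and *Ssr3*, a subunit of the translocon-associated complex, 398, 677, 301 and 317 CPM. Both of these kept the experiments apart as well. *Pdia3*, a disulfide isomerase, had 588, 753, 540 and 422 CPM and was also higher in both. *Calr*, which encodes calreticulin, had 286, 417, 527 and 421 CPM and was higher in the first experiment, and the stress factor *Atf4* had 423, 283, 369 and 374 CPM with overlap. The differences of these named genes were smaller than those of *Jchain*, *Pou2af1* and *Mzb1*. Elsewhere in the list, genes such as *Edem2* (2.11) and *Atf6* (2.03) had log2 differences above those of *Sdc1* (1.89) and *Xbp1* (1.50).

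**Figure D4:**
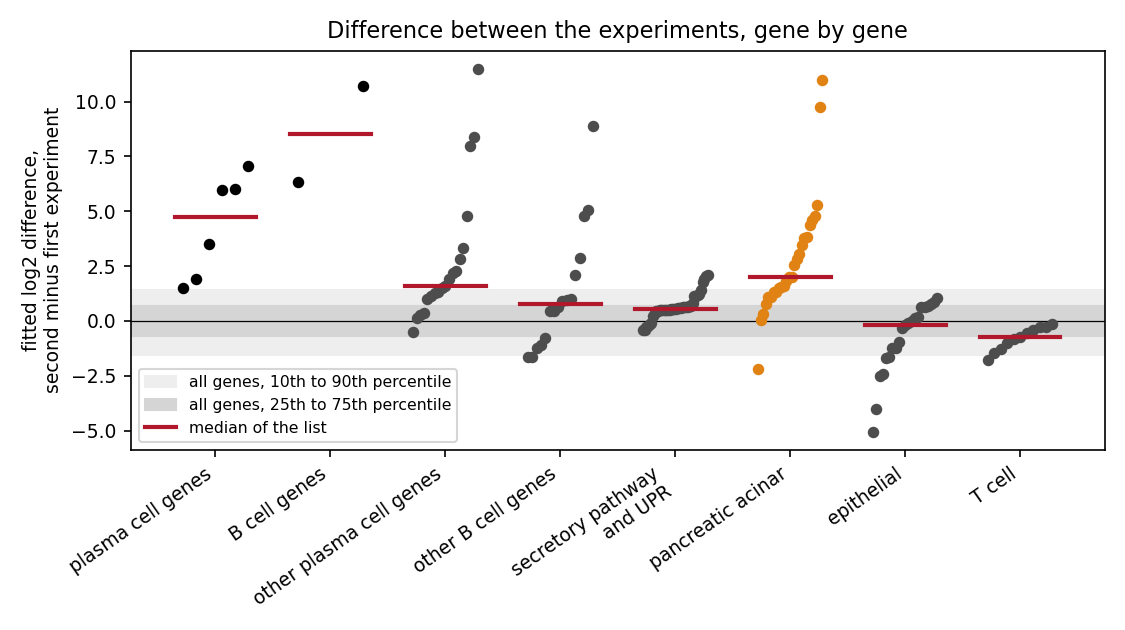
Fitted log2 difference between the experiments (second minus first) for each gene that passed the filter, by list, with the median of the list in red and gray bands for the 10th to 90th and 25th to 75th percentiles of all 11689 genes. The medians are 1.59 for other plasma cell genes, 0.76 for other B cell genes, 0.55 for the secretory pathway, 1.99 for pancreatic acinar genes, -0.19 for epithelial and -0.72 for T cell markers; the points of *Cd79a*, *Eaf2*, *Ccr10*, *Fcrla*, *Reg2* and *Pla2g1b*, which had 0 counts in the first experiment, depend on the prior count.

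Markers of neighboring stages and cell types were measured as well. Germinal center genes took between 0.00972% and 0.0202% of counts, and 3 of 7 passed the filter. In both second-experiment libraries 1 was higher and 2 were lower, against 14.7% and 14.4% of all genes, too few genes to read. *Bcl6*, a repressor of germinal center B cells that T cells also use, was lower there, at 90.9 and 58.4 against 139 and 139 CPM, and *Fas*, a death receptor of activated lymphocytes, was higher, at 20.5 and 18.96 against 5.13 and 1.51 CPM. *Pigr*, the epithelial receptor that carries J chain-linked IgA to the lumen, had 167, 1663, 20.98 and 1023 CPM, likewise highest in replicates 2 and 4. *Ccr9*, the gut-homing receptor of lymphocytes, had 1037, 300, 776 and 318 CPM. Plasmacytoid dendritic cells share several genes with plasma cells, and their 6 markers took 0.0210%, 0.0222%, 0.00222% and 0.0120% of the counts in replicates 1 to 4. Of these markers 4 passed the filter, and the median log2 difference was 1.45. In both second-experiment libraries 2 were higher and 0 were lower, against 14.7% and 14.4% of all genes, again too few genes to read. The 2 were *Ly6c2*, at 42.5, 21.2, 8.48 and 4.27 CPM, and *Tcf4*, a transcription factor named here for its values, at 101, 90.4, 4.69 and 20.1 CPM in replicates 1 to 4. Of the others, *Klk1* had 380, 695, 10 and 309 counts and *Bst2* 103, 82, 53 and 59 counts in replicates 1 to 4. *Ptcra* had 2 counts in replicate 4 and 0 elsewhere. *Siglech*, a defining marker of these cells, had 0 counts in all libraries. The part of this list in the differences of the plasma cell genes was not tested. Of 14 immunoglobulin genes looked for, 0 had a symbol in the table, and antibody transcripts are not analysed here.

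The genes whose pattern over the 4 libraries was most like that of *Jchain* were ranked by the root mean square difference of centered log2 CPM. Over 4 libraries, this is a description of likeness only. Of the chosen genes, *Pou2af1* was nearest, at 0.41 log2 units. Outside them, the nearest of all genes included *Reg1* (0.66), *Cela1* (0.80), *Cpb1* (1.06), *Cela2a* (1.12), *St6gal1* (1.25), *Cmah* (1.29) and *Cela3b* (1.50). Within 1 log2 unit of *Jchain* lay 3 of the 11689 genes, *Pou2af1* included, and within 2 units 21, while the median gene was at 4.66. A Pearson correlation above 0.9 with *Jchain*, by contrast, was reached by 529 genes, or 4.53%.

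Of these genes, *Reg1*, *Cela1*, *Cpb1*, *Cela2a* and *Cela3b* encode proteins known from pancreatic acinar cells, namely elastases, a carboxypeptidase and a regenerating protein. *Cpb1* had 11276, 5065, 0 and 393 counts in replicates 1 to 4, and *Cela1* 8640, 5864, 3 and 252. *Reg1* had 3508, 2249, 0 and 71 counts, the same order of libraries. *St6gal1* and *Cmah* encode enzymes of sialic acid transfer and synthesis, *St6gal1* with 1059, 1437, 1 and 34 counts and *Cmah* with 637, 773, 0 and 30. Replicate 3 was the lowest library and replicate 4 the third for each of these genes.

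A list of 32 pancreatic acinar genes was therefore added after these values were seen. Its share of all counts was 0.641%, 0.341%, 0.00268% and 0.154% in replicates 1 to 4, 17 of its 26 genes that passed the filter were higher in both second-experiment libraries (14.7% of all genes), 0 were lower (14.4% of all genes), and the median log2 difference was 1.99. *Cela1* and *Ctrb1* were its most abundant genes by TPM. Outside the rule for named genes, *Ptf1a*, a defining transcription factor of acinar cells, had 0 counts in all libraries. *Bhlha15*, also in this list, had 61, 402, 2 and 151 counts in replicates 1 to 4. Of the 32 genes, 5 had at most 3 counts in each library. The acinar and plasma cell shares parted within the second experiment, where replicate 2 had 0.532 times the acinar share of replicate 1 and 1.25 times its plasma cell share. Within the first experiment replicate 4 had 57.7 times the acinar share of replicate 3. The counts of *Cpb1* as a share of *Cpb1* and *Jchain* together were 20.4%, 7.06%, 0% and 33.5% in replicates 1 to 4. The part of the acinar genes in the differences of the plasma cell genes was not tested.

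Around *Cd79a*, the 5 nearest genes were *Ryr1* (0.11), *Reg2* (0.21), *Nuggc* (0.26), *Eaf2* (0.38) and *Reln* (0.52 log2 units). All had 0 counts in both libraries of the first experiment. *Ryr1*, a calcium channel of the sarcoplasmic reticulum, had 232 and 304 counts in replicates 1 and 2, *Reg2*, another acinar gene, 272 and 408, and *Nuggc*, a nuclear GTPase gene of germinal centers, 221 and 185. *Eaf2*, an elongation-associated factor found in B lineage cells, had 485 and 445 and *Reln*, a secreted matrix protein, 639 and 478. As a gene with 0 counts in one experiment has few possible patterns, 29 genes lay within 1 log2 unit of *Cd79a* and 169 within 2 units. With Pearson's correlation as the measure, 1 of the 8 genes nearest to *Jchain* (*Cmah*) and 1 of the 5 nearest to *Cd79a* (*Eaf2*) were again among the nearest.

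**Figure D5:**
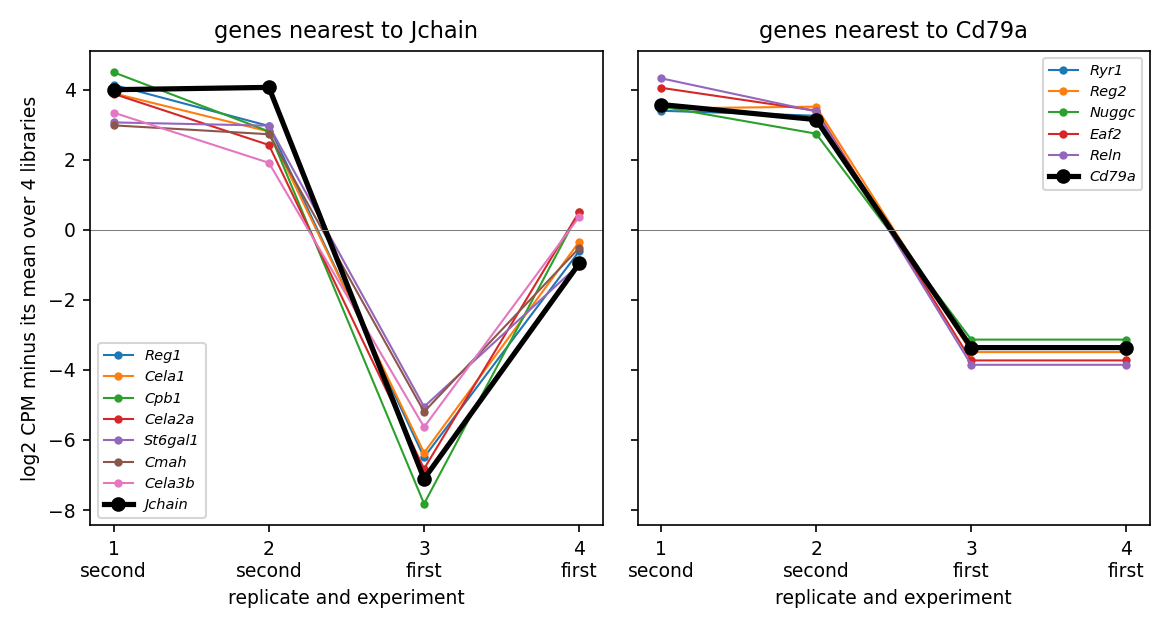
Log2 CPM minus its mean over the 4 libraries for *Jchain* (left, black) and the genes named as nearest to it and for *Cd79a* (right, black) and its 5 nearest genes, by replicate and experiment; lines join the values of a gene and the libraries have no order. For *Jchain* and its nearest genes replicate 3 is the lowest, and the genes near *Cd79a* have 0 counts in both first-experiment libraries.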

How the data were processed

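RNA of sorted SI-LP NKT cells was turned into libraries with the Nugen Ovation ultralow kit. Raw counts per gene were deposited by the authors, who aligned paired reads with HISAT2 and counted them on exons of RefSeq genes with featureCounts 1.6.4, without strand, per the file headers and the methods. The gene lengths deposited by the authors beside the counts served to compute TPM. The methods name GRCm39 and a NovaSeq, whereas the labels name GRCm38.p6 and a HiSeq; the positions of 10 of 10 genes match GRCm38, which is used here. The exons of these 10 genes overlap those of no other gene in the table. Of the 6 library columns, 2 matched no sample label and were not used.

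CPM used TMM factors from edgeR, and log2 CPM a prior count of 2. Genes that reached 10 counts in 2 or more libraries were fitted with edgeR's quasi-likelihood test, with the experiment as the only term, and adjusted by Benjamini-Hochberg. The standard errors given are the absolute log2 difference divided by the square root of that test's F statistic. They are given as a measure of spread and are not read as a test of the chosen genes. The fit was run on simulated data in which all genes had the same fixed spread, not one taken from these libraries. It therefore does not show how the fit performs at the spread seen here. Shares carry 95% Wilson intervals. Intervals and the limit of 3 counts cover counting error only, since PCR reads without molecular identifiers are not independent molecules.

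The genes and lists were chosen with earlier results of these data known. Besides the 10 genes, those named are the 6 of highest mean TPM in the lists of other plasma cell, other B cell and secretory pathway genes, 6 further regulators and markers, 8 genes nearest to *Jchain* and 5 nearest to *Cd79a* in pattern, and the 2 most abundant genes of other lists; a few of these are not reported here. The pancreatic acinar list and the scaling to T cell markers were added after values were seen. Alternatives were DESeq2, median-of-ratios factors, library size alone, other filters and prior counts, TPM, other denominators, Pearson's correlation, and leaving out each replicate. Versions were edgeR 4.0.16, DESeq2 1.42.0 and limma 3.58.1 in R 4.3.3, and scipy 1.17.1, pandas 2.3.3 and numpy 2.4.6 in Python 3.11.15.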

Additional observations from a re-analysis of the deposited data

Results flagged for a closer look

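In a group of 4 libraries, a library was marked as far from the others when its gap to the nearest one took up most of the group's range by Dixon's criterion. Of 69 values examined, 3 met it, where chance would mark 3.45. The CPM of *Ms4a1* was marked for replicate 1 and that of *Pax5* for replicate 2, each with a gap equal to the whole range (1), on a single count and on 2 counts. The CPM of *Lyz1*, the Paneth cell lysozyme, was marked for replicate 4, with a gap of 0.984 of the range (301, 338, 10.5 and 21151 CPM in replicates 1 to 4). That library had the highest epithelial share, but *Lyz1* is itself in the epithelial list. It held 84299 of the 116594 epithelial counts of replicate 4, so the 2 values are not independent.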

How the results depend on the processing

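No paired analysis was possible because replicate numbers are not shared between the experiments, and there is 1 condition. Under the alternatives run, 0 of the log2 differences between experiments changed sign. Differences within an experiment were not checked gene by gene. For the plasma cell genes, the median of replicate 2 minus 1 went from -0.16 with TMM to 0.10 with library size alone. Scaled to T cell markers it was 1.41. Levels moved within the wide spread of the 4 libraries, except the mean CPM of *Xbp1* scaled to T cell markers. The mean share of the plasma cell genes went from 0.406% to 0.0583% without *Jchain* and to 0.0706% without the 10 most abundant genes. It ranged from 0.2502% to 0.538% as each replicate was left out. Genes called between the experiments went from 0 with edgeR to 41 with DESeq2 and to 60 without a filter on low counts, and ranged from 0 to 7 when each replicate was left out (7 without replicate 3 and 6 without replicate 4); the cause was not tested. Scaled to the T cell markers, 5 instead of 0 of the chosen genes were over 2-fold higher within both experiments, and mean CPM was higher for the 8 genes that passed the filter, going for *Jchain* from 3170 to 5333, *Xbp1* from 257 to 427 and *Cd79b* from 10.2 to 18.6. That scaling moved the median log2 difference of all genes to 0.54 between experiments and to 1.67 and 1.55 within them, and library size alone moved it to 0.20 between experiments. Replicates 3 and 4 decide several differences. Between leaving out replicate 3 and leaving out replicate 4, the log2 difference between experiments went from 4.98 to 11.31 for *Jchain*, from 6.08 to 11.03 for *Mzb1*, from 0.93 to 5.61 for *Sdc1* and from 4.99 to 14.47 for *Pou2af1*, and for *Cd79b* it went from 5.46 without replicate 4 to 10.18 without replicate 3; the upper values of *Mzb1*, *Pou2af1* and *Cd79b* rest on a group at 0. In the first experiment 0 to 2 counts per library stand behind *Mzb1*, *Cd79a* and *Cd79b*, so the size of their differences is loosely fixed.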
